A study of Branchiostoma lanceolatum with 24 samples.

Results

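The 4 libraries described here, of 24 in all, hold RNA of amphioxus (Branchiostoma lanceolatum) embryos collected at 21.5 hours post fertilization (hpf). Amphioxus is a cephalochordate, an invertebrate relative of the vertebrates. They were chosen by their labels alone. In 2 of them the embryos had been kept in sea water with 50 µM SU5402 from 15.5 hpf on, which makes 6 h of exposure. In the other 2 the embryos had been kept with 0.1% DMSO over the same hours. The labels do not say whether the SU5402 dishes held DMSO as well. Each library is RNA of a mix of whole embryos, with the number of embryos not given, and no strain or genetic change is named. The late series also holds SU5402 and DMSO embryos of 18.5 and 24.5 hpf, after 3 and 9 h, with 2 libraries in each group. All 12 late libraries were fitted together so that they share 1 estimate of the spread. An early series was treated from 5 hpf. It is used only where its embryos of 11 hpf, also after 6 h, are named, and in the fit over all 24 libraries.

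Fibroblast growth factors (FGFs) are secreted ligands that bind receptor tyrosine kinases at the cell surface. The activated receptor starts the Ras, MEK and ERK kinase cascade, which changes transcription through ETS-family factors, and it also raises inhibitors of its own signal, such as Sprouty and dual-specificity phosphatases. SU5402 occupies the ATP site of the receptor kinase. It acts on FGF receptors and, less selectively, on other receptor tyrosine kinases. In amphioxus embryos, FGF signalling is known for its part in forming the most anterior somites. The design asks which transcripts differ when the receptor is blocked from 15.5 hpf on.

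Expression was counted on contigs, which are assembled pieces of transcript. The table pairs no contig with a gene name, and 0 contig identifiers matched the RefSeq gene table of the species, so genes of the FGF pathway could not be looked up and the embryos could not be checked against marker genes. Of 96094 contigs, 73087 had enough reads to be tested in the late series. The 23007 left out included 3997 with 0 reads in all 4 libraries of 21.5 hpf, and none of them had more than 41 reads in any 1 of the 4. Several contigs can come from 1 gene, so numbers of contigs are not numbers of genes.

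The SU5402 libraries of 21.5 hpf held 15267982 and 13010725 reads, and the DMSO libraries 17172529 and 10866511. The other 8 late libraries were deeper, with 27687922 to 37137241 reads. Libraries of 6 h exposure had 15 cycles of PCR and those of 3 and 9 h had 12, so cycle number goes with collection time but not with treatment. At least 1 read fell on 87544 and 85778 contigs in the SU5402 libraries, against 84684 and 80972 in the DMSO libraries. The first DMSO library was the deepest of the 4 and still showed fewer contigs than either SU5402 library.

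On the first 2 principal components of the log2 level, in reads scaled to a common library size (CPM), which held 41.6% and 34.2% of the variance of the 12 late libraries, each group formed a tight pair. On the first component the SU5402 libraries of 21.5 hpf stood at 32.6 and 32.7, against -15.5 and -15 for the DMSO libraries. On the second they stood at 18.2 and 13.8, against -16 and -17.8. The SU5402 and DMSO libraries were thus apart on both components at 21.5 hpf, and in both arms the second component fell with each later collection.

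**Figure D1:**
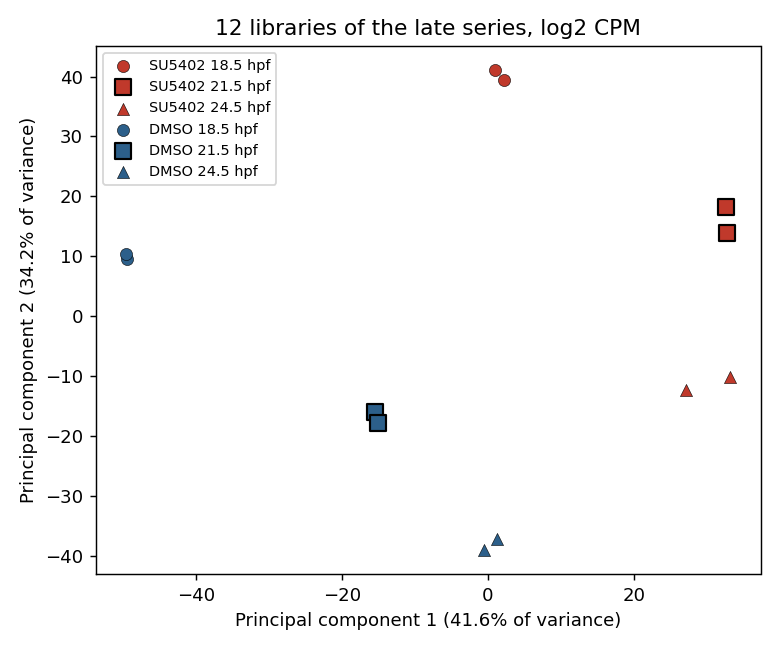
First and second principal components of log2 CPM over contigs of 10 CPM or more on average, with 1 point per library of the late series; red marks SU5402, blue marks DMSO, and the shape marks the time of collection (squares for 21.5 hpf). The squares of SU5402 lie at 32.6 and 32.7 on the horizontal axis and those of DMSO at -15.5 and -15.

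SU5402 raised 8005 contigs and lowered 7772 at 21.5 hpf, which are 11.0% and 10.6% of the contigs tested and 21.6% together (edgeR quasi-likelihood test, Benjamini-Hochberg adjusted p under 0.05). Below, rose and fell are used for contigs past that threshold. Among called contigs, large changes were more often rises, and many of these were of rare contigs. More than 2-fold changes made up 4422 of the rises (55.2%) and 2704 of the falls (34.8%), more than 4-fold changes 2269 and 648, and more than 10-fold changes 1193 and 125. The median size of a change was 1.13 on the log2 scale for risen and 0.76 for fallen contigs. When the test asked for a change over 1.5-fold, 2797 contigs rose (3.83%) and 1818 fell (2.49%). In whole embryos, fewer cells of a type and less RNA per cell cannot be told apart.

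With 1 of the 4 libraries left out, the lone library is assumed to vary like the other groups, and fewer contigs passed. Without SU5402 replicate 1, 5007 rose and 4955 fell, and without DMSO replicate 1, 4323 rose and 4840 fell. Each of the 4 could be left out in turn with no loss of the call for 3125 of the risen (39%) and 3539 of the fallen contigs (45.5%). A fit over all 24 libraries, which changes the spread, the scaling and the contigs tested (87512) together, gave 3847 risen and 3367 fallen contigs.

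The share of fallen contigs was larger among abundant contigs. To keep level apart from the values tested at 21.5 hpf, levels were taken from the 8 late libraries of 18.5 and 24.5 hpf. These include the SU5402 libraries of both times, so the level is not free of an effect shared between times. Of 27682 contigs under 1 CPM in these 8 libraries, 8.52% rose and 2.72% fell at 21.5 hpf. Of 32397 contigs at 1 to 10 CPM, 10.9% rose and 10.2% fell. Of 11261 contigs at 10 to 100 CPM, 16.4% rose and 26.6% fell, and of 1747 contigs over 100 CPM, 15.6% rose and 41.3% fell. The median log2 fold change of these 4 classes was 0.17, 0.00, -0.06 and -0.12. Large changes were mostly falls among abundant contigs. Of those over 100 CPM 0.801% rose and 4.01% fell more than 2-fold, and of those at 10 to 100 CPM 2.08% rose and 3.63% fell more than 2-fold, while under 1 CPM the shares were 8.51% and 2.72%. The class of 10 to 100 CPM depended on the scale, with 21.3% risen and 21.2% fallen when library totals replaced the trimmed mean of M-values (TMM) factors, while over 100 CPM more contigs still fell, 33.5% against 19.5% risen. Among rare contigs the number of reads limits what can pass, and no test was made between the 4 classes.

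**Figure D2:**
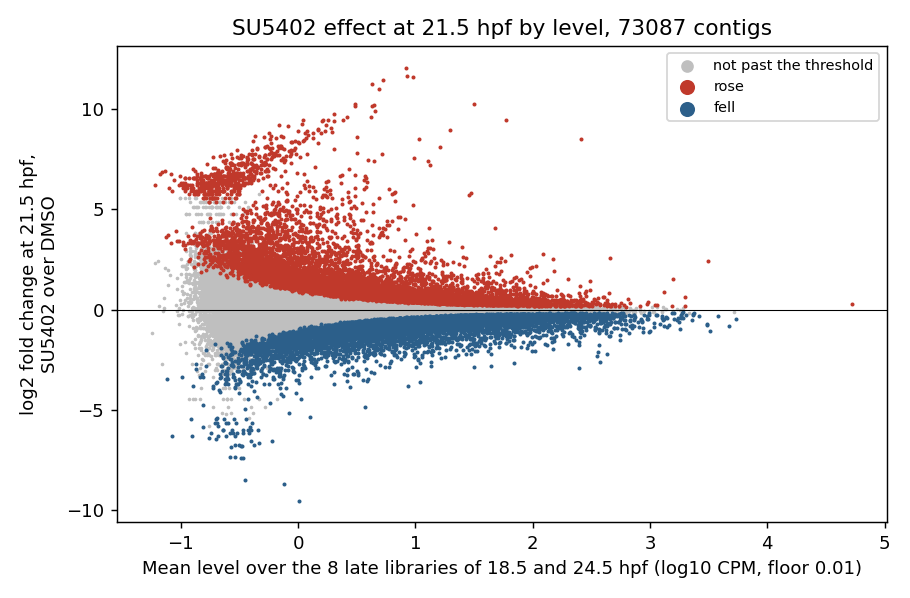
Log2 fold change at 21.5 hpf, SU5402 over DMSO, against the mean level of each contig in the 8 late libraries of the other 2 times (log10 CPM), with contigs that rose in red, those that fell in blue and the others in grey. Rises spread up to and beyond 10-fold on the left, while blue points are denser to the right, where 41.3% of the contigs over 100 CPM fell; fitted values of contigs with 0 reads in a group depend on the prior count, which makes the separate band at the upper left.

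Of the risen contigs, 543 had 0 reads in both DMSO libraries of 21.5 hpf. Their SU5402 pair held 6 to 651 reads, with a median of 15. Against a floor of 3 counts over the DMSO pair, the median of them was at least 4.96-fold higher with SU5402, the one with most reads at least 215-fold, and 341 were at least 4-fold higher. Their behaviour at the other times comes from other libraries. Of the 543, 505 also rose with SU5402 at 18.5 hpf, where 16.4% of all contigs tested rose, and 376 rose at 24.5 hpf, where 11.7% did. In 100 of them no read was found in any of the 6 DMSO libraries of the late series. Among the 451 that were also tested in the early series, 353 rose at 11 hpf, where 13.9% of contigs rose. Contigs without reads in DMSO libraries were tested mainly because of reads in SU5402 libraries. The shares of all contigs are therefore no fair comparison for these counts, which only describe the 543.

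The reverse case was rarer. The SU5402 libraries held 0 reads for 51 of the fallen contigs, with 6 to 108 reads in the DMSO pair. Against the same floor of 3 counts over the SU5402 pair, the median of them was at least 3.36-fold lower. Of these 51, 15 had also fallen at 18.5 hpf, where 14.0% of contigs fell, and 41 fell at 24.5 hpf, where 11.2% did. A single contig of the 51 had 0 reads in all 6 late SU5402 libraries. Of the 23 tested early, 1 fell at 11 hpf, where 8.93% fell. The same limit holds for these 51 contigs, with the groups exchanged.

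The contigs with the smallest p at 21.5 hpf, among those with a mean of at least 5 CPM in both groups, were ContigAmph25458 and ContigAmph15512 for the rises and ContigAmph23193 and ContigAmph7823 for the falls. The files give no function for any of them. All 4 had their SU5402 libraries clear of their DMSO libraries at each of the 3 times. The limit of 5 CPM left out contigs with a smaller p. ContigAmph24501, for example, rose by 8.49 on the log2 scale at 21.5 hpf (adjusted p = 5.8e-25, edgeR).

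ContigAmph25458 was measured at 85.1 and 87.2 CPM in the SU5402 libraries of 21.5 hpf, against 13.7 and 13.6 CPM in the DMSO libraries. Its log2 fold change was 2.65 (SE 0.091, adjusted p = 9.5e-18, edgeR). At 18.5 hpf its SU5402 libraries stood at 67.1 and 63.7 CPM and its DMSO libraries at 14.3 and 15.5 CPM, a log2 fold change of 2.13. At 24.5 hpf the SU5402 libraries stood at 77.5 and 85.9 CPM and the DMSO libraries at 10.4 and 10.5 CPM, a log2 fold change of 2.96. The effect at 21.5 hpf was larger than at 18.5 hpf by 0.52 (SE 0.12, adjusted p = 0.0092), and its difference from 24.5 hpf did not pass (adjusted p = 0.2). In early embryos of 11 hpf the log2 fold change was 0.22 (SE 0.23, adjusted p = 0.55).

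ContigAmph15512 had 237 and 212 CPM with SU5402, against 40.5 and 38.1 CPM with DMSO (log2 fold change 2.51, SE 0.088, adjusted p = 1.4e-17, edgeR). Its level in the SU5402 libraries was highest at 18.5 hpf, with 344 and 291 CPM, and lowest at 24.5 hpf, with 168 and 186 CPM. The DMSO libraries held 55.9 and 60.7 CPM at 18.5 hpf and 42.7 and 38.8 CPM at 24.5 hpf. The log2 fold changes of 2.44, 2.51 and 2.12 over the 3 times therefore lay close together, and neither step passed the test (adjusted p = 0.85 and 0.066). It also rose at 11 hpf in the early series, by 2.09 (SE 0.18, adjusted p = 8.2e-05).

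ContigAmph23193 had 130 CPM in each SU5402 library of 21.5 hpf, against 608 and 590 CPM in the DMSO libraries (log2 fold change -2.21, SE 0.065, adjusted p = 2.2e-19, edgeR). At 18.5 hpf it had 281 and 269 CPM with SU5402, against 656 and 723 CPM with DMSO. At 24.5 hpf it had 174 and 161 CPM with SU5402, against 574 and 611 CPM with DMSO. The fall was deeper at 21.5 hpf than at 18.5 hpf by 0.88 on the log2 scale (adjusted p = 8.7e-08) and deeper than at 24.5 hpf by 0.38 (adjusted p = 0.011). Its lowest SU5402 levels were at 21.5 hpf, while its DMSO level stayed between 574 and 723 CPM in all 6 libraries. This contig and those named with it were chosen by their p at 21.5 hpf, which favours a larger effect there than at the other times.

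ContigAmph7823 also had its lowest SU5402 levels at 21.5 hpf, but its level decreased in DMSO embryos as well, with 666 and 691 CPM at 18.5 hpf and 344 and 403 CPM at 24.5 hpf. It was measured at 68.6 and 62.9 CPM with SU5402, against 408 and 388 CPM with DMSO at 21.5 hpf. The log2 fold change was thus -2.60 (SE 0.088, adjusted p = 6.6e-18, edgeR). The log2 fold change was -1.04 at 18.5 hpf and -1.71 at 24.5 hpf. The steps between times, of -1.55 (SE 0.12, adjusted p = 4.3e-10) and then 0.88 (SE 0.12, adjusted p = 4.5e-05), both passed. It also fell at 11 hpf in the early series, by 1.54 on the log2 scale (adjusted p = 1e-05), which ContigAmph23193 did not pass there (log2 fold change -1.19, SE 0.55, adjusted p = 0.15).

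**Figure D3:**
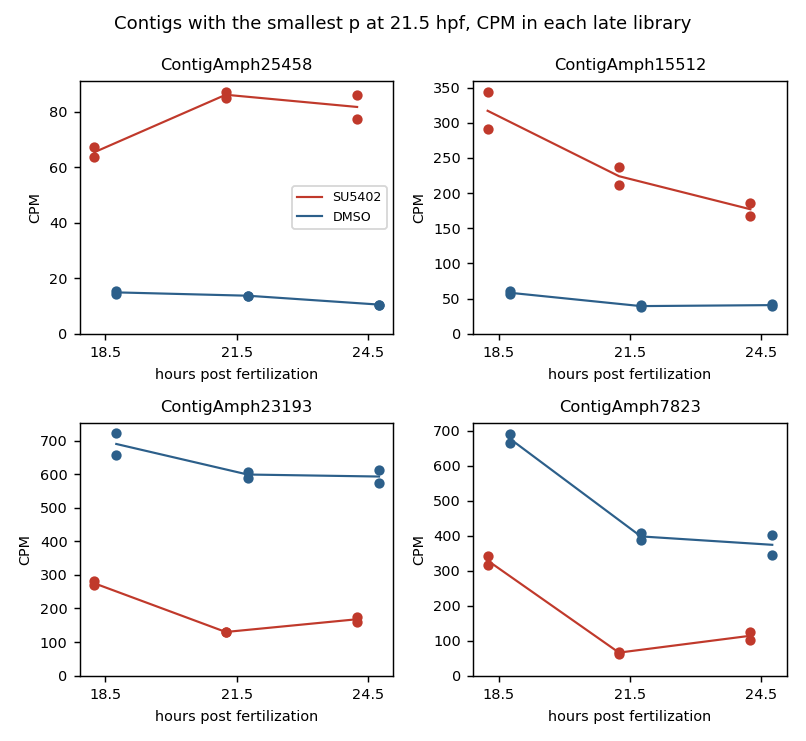
Level in CPM of the 4 contigs named for their p at 21.5 hpf, in each late library (points) with the group means (lines). These had the smallest p of their direction among contigs with a mean of at least 5 CPM in both groups. SU5402 is in red left of DMSO in blue, at 18.5, 21.5 and 24.5 hpf. ContigAmph25458 and ContigAmph15512 lie above their DMSO levels at all 3 times and ContigAmph23193 and ContigAmph7823 below, with the lowest SU5402 levels of both at 21.5 hpf.

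One SU5402 library of 21.5 hpf stood apart for a small set of contigs. Of 20309 contigs with a mean of at least 5 CPM over the late series, 11 were more than 4-fold higher in SU5402 replicate 1 than in replicate 2, by 36.6-fold to 131-fold, and 0 the other way. In the DMSO pair of 21.5 hpf, 1 contig differed that much, and in each other late pair 0 or 1. Summed over the 11, the level was 20911 CPM in SU5402 replicate 1 and 530 CPM in replicate 2, against 1375 and 2622 CPM in the DMSO libraries of 21.5 hpf. The sum was also high in the DMSO libraries of 18.5 hpf, with 15573 and 6189 CPM, and lay between 1158 and 1610 CPM in the remaining 6 late libraries.

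All 11 counted among the risen contigs at 21.5 hpf, although SU5402 replicate 2 was below both DMSO libraries for each of them. Without SU5402 replicate 1, 10 of the 11 fell and 0 rose. ContigAmph68708, the most abundant of them and singled out after its values were seen, had 17500 and 446 CPM in the SU5402 libraries, against 1160 and 2240 CPM in the DMSO libraries (log2 fold change 2.40, SE 0.68, adjusted p = 0.011, edgeR). The same 11 fell with SU5402 at 18.5 hpf, and all 11 are among the contigs whose effect was higher at 21.5 than at 18.5 hpf. In all, 12 risen contigs were called fallen with 1 library left out, and 10 of them belong to this set, while 0 fallen contigs turned. What these contigs encode, and why 1 library differs, was not tested.

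This set also weighs on read shares. Contigs that rose more than 2-fold took 4.9% and 2.57% of the reads in the SU5402 libraries, against 0.926% and 1.02% in the DMSO libraries. Without the 11 contigs the shares were 2.73% and 2.52%, against 0.789% and 0.755%. Contigs that fell more than 2-fold took 1.79% and 1.89% of the reads in the SU5402 libraries, against 4.45% and 4.35% in the DMSO libraries.

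Most of the response at 21.5 hpf was shared with the neighbouring times, for which other embryos and libraries were used. At 18.5 hpf 30.4% of the contigs tested rose or fell, and at 24.5 hpf 22.9%. Of the 8005 risen contigs, 67.5% also rose at 18.5 hpf and 55.2% at 24.5 hpf, where 16.4% and 11.7% of all contigs rose. Of the 7772 fallen contigs, 60.9% also fell at 18.5 hpf and 51.3% at 24.5 hpf, where 14.0% and 11.2% fell. Opposite calls were few, with 84 risen contigs fallen and 168 fallen contigs risen at 18.5 hpf, and 102 and 86 at 24.5 hpf. Seen from the other lists, 45% of the contigs risen at 18.5 hpf and 51.7% of those risen at 24.5 hpf also rose at 21.5 hpf, and for the fallen 46.4% and 48.7%.

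Of the risen contigs, 3356 (41.9%) rose at all 3 times, 2044 rose at 18.5 and 21.5 hpf only, and 1062 at 21.5 and 24.5 hpf only. Of the fallen contigs, 2602 (33.5%) fell at all 3 times, 2132 at 18.5 and 21.5 hpf only, and 1387 at 21.5 and 24.5 hpf only. A further 1543 risen and 1651 fallen contigs passed in that direction at 21.5 hpf alone. A call at 1 time and not at another does not show a difference. Of the 1543, the effect itself was higher at 21.5 hpf than at 18.5 or 24.5 hpf for 255, and than at both for 25. Of the 1651, it was lower than at 18.5 or 24.5 hpf for 394, and than at both for 71. These tests use the libraries of 21.5 hpf that also gave the calls.

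Contigs called with more than 2-fold change at the other times were also followed at 21.5 hpf, where many did not pass the test. The libraries of 21.5 hpf held fewer reads, 10866511 to 17172529 against 27687922 to 37137241 in the other late libraries. The part of depth in this was not tested. The 6998 contigs that rose more than 2-fold at 18.5 hpf (9.57% of those tested) had a median log2 fold change of 2.05 there and 1.35 at 21.5 hpf. At 21.5 hpf 3525 of them rose (50.4%, against 11.0% of all contigs tested), 48 fell (0.686%, against 10.6%) and 3425 did not pass. Their summed level at 21.5 hpf was 48464 and 45378 CPM with SU5402, against 25921 and 26909 CPM with DMSO. The 3594 that rose more than 2-fold at 24.5 hpf (4.92%) had a median of 1.80 at both times. At 21.5 hpf 2377 of them rose (66.1%) and 0 fell. Their sum was 21108 and 19334 CPM with SU5402, against 7213 and 6794 CPM with DMSO.

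The 2409 contigs that fell more than 2-fold at 18.5 hpf (3.30%) had a median of -1.33 there and -0.92 at 21.5 hpf. At 21.5 hpf 1168 of them fell (48.5%, against 10.6% of all contigs tested), 24 rose (0.996%, against 11.0%) and 1217 did not pass. The 11 contigs above are among them, and without these the sum was 7353 and 7616 CPM with SU5402, against 16096 and 15997 CPM with DMSO. With them it was 28264 and 8146 CPM with SU5402, against 17471 and 18619 CPM with DMSO. For the 2485 that fell more than 2-fold at 24.5 hpf (3.40%) the median was -1.44 there and -1.20 at 21.5 hpf. At 21.5 hpf 1281 of them fell (51.5%), 14 rose (0.563%) and 1190 did not pass. Their sum was 10554 and 10965 CPM with SU5402, against 25750 and 25206 CPM with DMSO. Apart from the 11 contigs, these 4 sums did not overlap between the SU5402 and the DMSO libraries. Values at the time that chose a list are raised in size by the choice, so a smaller median at 21.5 hpf is no sign of a weaker effect by itself.

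**Figure D4:**
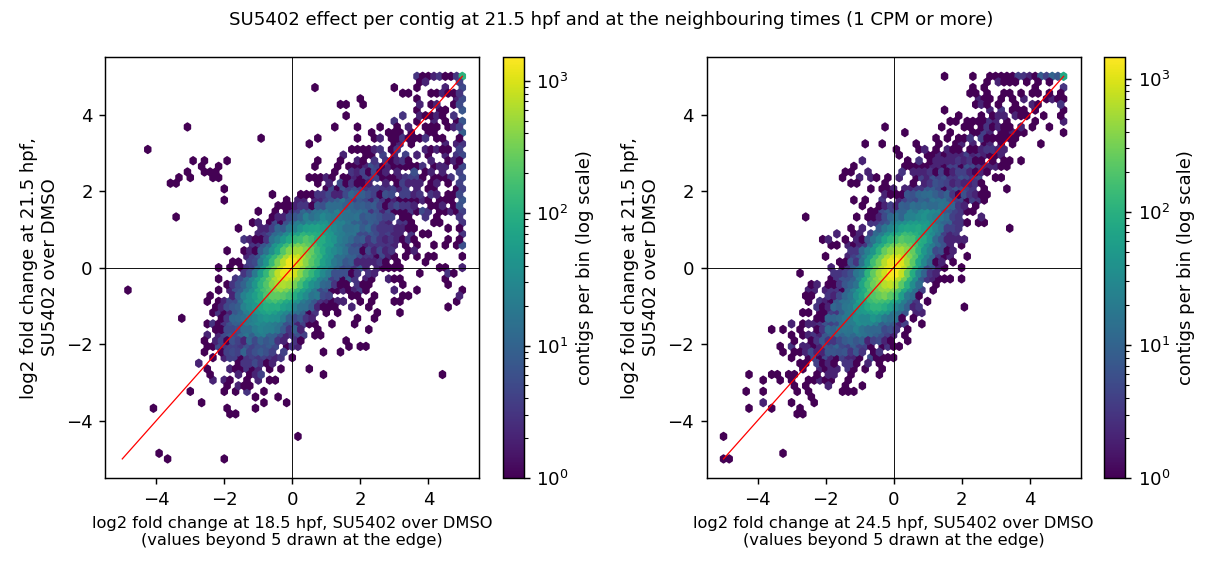
Log2 fold change of SU5402 over DMSO at 21.5 hpf (vertical) against that at 18.5 hpf (left) and at 24.5 hpf (right) for contigs of 1 CPM or more, coloured by contigs per bin on a log scale, with values beyond 5 drawn at the edge and the red line marking equal effects. Contigs with large effects follow the line in both panels, some large rises of 18.5 hpf lie below it on the left, and the scattered bins at the upper left of the left panel include the 11 contigs that were high in SU5402 replicate 1.

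Between 18.5 and 21.5 hpf, 3507 contigs (4.80% of those tested) had a change in the effect itself, with 1000 moving up (1.37%) and 2507 moving down (3.43%). Among the 2507 that moved down, 1477 had risen at 18.5 hpf and 416 rose at 21.5 hpf, while 409 had fallen at 18.5 hpf and 1176 fell at 21.5 hpf. Their median log2 fold change was 0.61 at 18.5 hpf and -0.36 at 21.5 hpf. Among the 1000 that moved up, 596 had fallen at 18.5 hpf and 466 rose at 21.5 hpf, with medians of -0.47 and 0.34. Both sets were chosen by the difference between the effects at these 2 times. The choice favours medians of opposite sign and calls that turn, so these values only describe the sets. More contigs moved down than up in every fit run. Without SU5402 replicate 1 of 21.5 hpf the numbers were 619 up and 1709 down, without SU5402 replicate 2 they were 507 and 1761, without DMSO replicate 1 they were 486 and 1431, and without DMSO replicate 2 they were 474 and 1657. Leaving out SU5402 replicate 1 of 18.5 hpf gave 586 and 1779, and DMSO replicate 2 of 18.5 hpf 645 and 1670. In the fit over all 24 libraries, 68 moved up and 494 down.

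The 2 contigs that moved down with the smallest p were ContigAmph16200 and ContigAmph5596, whose direction turned between the 2 times. ContigAmph16200 had 58 and 57.5 CPM with SU5402, against 12.8 and 11.6 CPM with DMSO at 18.5 hpf. At 21.5 hpf it had 11.5 and 9.27 CPM with SU5402, against 33.2 and 32.1 CPM with DMSO. The log2 fold change was 2.25 at 18.5 hpf and -1.65 at 21.5 hpf, a step of -3.89 (SE 0.15, adjusted p = 2.7e-15, edgeR). In SU5402 embryos its level dropped over the 3 h in which it increased in DMSO embryos.

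ContigAmph5596 had 427 and 438 CPM with SU5402, against 61.7 and 58.3 CPM with DMSO at 18.5 hpf. At 21.5 hpf it had 286 and 276 CPM with SU5402, against 337 and 371 CPM with DMSO (log2 fold change -0.33, adjusted p = 0.0071). The step was -3.18 (SE 0.13, adjusted p = 2.7e-15, edgeR). At 24.5 hpf it was at 157 and 206 CPM with SU5402, against 456 and 544 CPM with DMSO, and the effect fell further, by 1.13 on the log2 scale (adjusted p = 3.7e-06).

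ContigAmph13823 and ContigAmph11043 moved up with the smallest p, and in both a fall seen at 18.5 hpf had become smaller. ContigAmph13823 had 407 and 428 CPM with SU5402, against 1360 and 1330 CPM with DMSO at 18.5 hpf. At 21.5 hpf it had 479 and 534 CPM with SU5402, against 783 and 767 CPM with DMSO, a step of 1.07 (SE 0.088, adjusted p = 2.6e-09, edgeR). By 24.5 hpf the groups overlapped, at 756 and 691 CPM with SU5402 and 732 and 659 CPM with DMSO. ContigAmph11043 had 2.8 and 3.97 CPM with SU5402, against 31.1 and 33.1 CPM with DMSO at 18.5 hpf, and 17.5 and 19.6 CPM, against 45.5 and 46.6 CPM, at 21.5 hpf, a step of 1.93 (SE 0.17, adjusted p = 5.7e-09, edgeR). ContigAmph11043 increased in both arms and stayed lower with SU5402, whereas the level of ContigAmph13823 decreased with time in DMSO embryos.

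Between 21.5 and 24.5 hpf the number was 2593 (3.55%), of which 1480 moved up (2.02%) and 1113 moved down (1.52%). The split turned with TMM factors from abundant contigs, to 1040 upward and 1427 downward. In the fit over all 24 libraries 26 moved up and 17 down. Leaving out 1 library of 21.5 hpf lowered the numbers to 633 up and 552 down without SU5402 replicate 1, 827 and 669 without SU5402 replicate 2, 516 and 361 without DMSO replicate 1, and 666 and 564 without DMSO replicate 2. Without SU5402 replicate 1 of 24.5 hpf they were 806 and 623. Of the 1480 upward changes, 1105 had fallen at 21.5 hpf, and 1098 (74.2%) had an effect of smaller size at 24.5 hpf. Of the 1113 downward changes, 701 had risen at 21.5 hpf and 497 fell at 24.5 hpf. Both sets were chosen by the difference between the effects at these 2 times, which favours such counts. The counts therefore only describe the sets.

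ContigAmph34810 and ContigAmph28494 moved up with the smallest p between 21.5 and 24.5 hpf. Both decreased with time in DMSO embryos. ContigAmph34810 had 14.8 and 14.9 CPM with SU5402, against 16.7 and 17.8 CPM with DMSO at 21.5 hpf (log2 fold change -0.22, adjusted p = 0.24), and 8.32 and 6.98 CPM with SU5402, against 1.75 and 2.02 CPM with DMSO at 24.5 hpf. Its step was 2.23 (SE 0.2, adjusted p = 2.9e-07, edgeR). ContigAmph28494 had 34 and 34.8 CPM with SU5402, against 54.2 and 46.7 CPM with DMSO at 21.5 hpf, and 23 and 23.1 CPM with SU5402, against 14 and 12 CPM with DMSO at 24.5 hpf, a step of 1.38 (SE 0.13, adjusted p = 3.2e-07, edgeR). In the fit over all 24 libraries its step was 1.39 with an adjusted p of 0.26 (edgeR).

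ContigAmph20052 moved down, as did ContigAmph16200 once more. ContigAmph20052 had 46.4 and 49.7 CPM with SU5402, against 1.17 and 1.44 CPM with DMSO at 18.5 hpf, and 57.4 and 47.6 CPM with SU5402, against 17.7 and 16.4 CPM with DMSO at 21.5 hpf. At 24.5 hpf the order had turned, with 15.5 and 20.7 CPM with SU5402, against 25.3 and 22.6 CPM with DMSO. The step from 21.5 to 24.5 hpf was -2.02 (SE 0.17, adjusted p = 1.6e-07, edgeR), and in the fit over all 24 libraries it was again -2.02, with an adjusted p of 0.097. For ContigAmph16200 the log2 fold change reached -3.64 at 24.5 hpf, a step of -1.99 (SE 0.17, adjusted p = 1.6e-07).

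**Figure D5:**
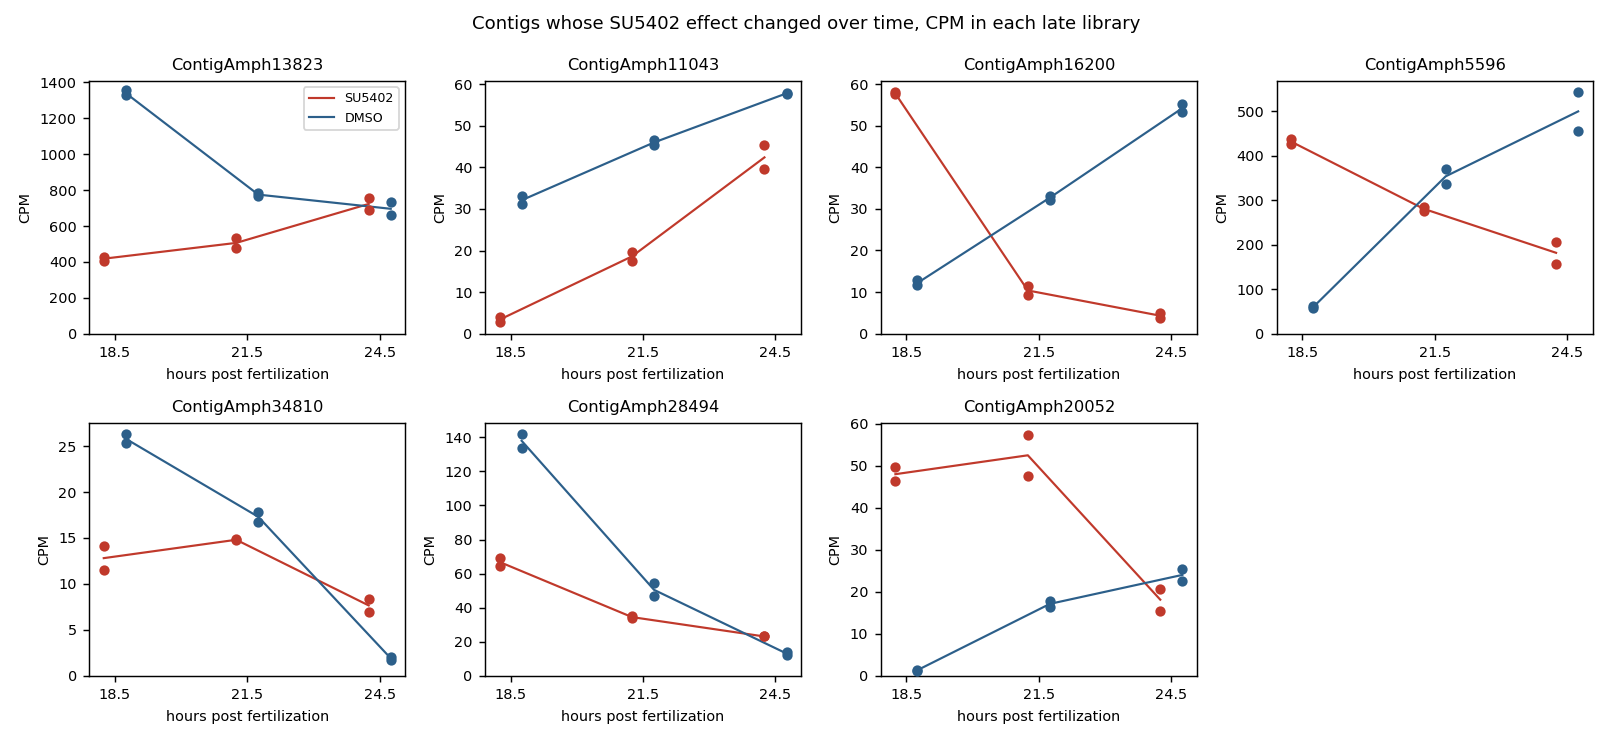
Level in CPM of the 7 contigs named for a change of the SU5402 effect to or from 21.5 hpf, in each late library (points) with the group means (lines), SU5402 in red left of DMSO in blue. In ContigAmph16200 and ContigAmph5596 the lines cross between 18.5 and 21.5 hpf, and in ContigAmph34810, ContigAmph28494 and ContigAmph20052 they cross between 21.5 and 24.5 hpf.

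Contigs that changed in both steps were followed through. The effect moved down in both steps at 344 contigs, down and then up at 216, up in both at 64 and up and then down at 43. Of the 43, 5 belong to the 11 contigs that were high in SU5402 replicate 1 of 21.5 hpf. Both steps contain the libraries of 21.5 hpf with opposite sign, so error in these libraries favours the courses that turn. ContigAmph7823 and ContigAmph23193 are among the 216 that went down and then up, and ContigAmph16200 and ContigAmph20052 among the 344 that went down in both steps. These numbers depend on the fit and on single libraries of 21.5 hpf. The fit over all 24 libraries gave 9, 8, 1 and 1 in the same order, and the last course held 15 contigs with limma-voom, 12 with DESeq2 and 99 with no filter. In the same order, the 4 courses held 196, 97, 31 and 11 contigs without SU5402 replicate 1, 145, 80, 18 and 5 without DMSO replicate 1, and 204, 99, 24 and 15 without DMSO replicate 2. Without SU5402 replicate 2, 127 went down and then up and 28 went up in both steps.

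Contigs were also sorted by their course in control embryos, using the DMSO libraries of 18.5 and 24.5 hpf, none of which enters the comparison at 21.5 hpf. Over those 6 h, 12774 contigs rose (17.5%) and 11659 fell (16%) in DMSO embryos, together 33.4%. With library totals in place of TMM factors, 15256 rose and 8918 fell. Of the 12774, SU5402 raised 15.6% and lowered 17.6% at 21.5 hpf, an order that depends on the setting and on the size of the change in controls. Library totals gave 2686 raised and 2153 lowered, TMM on abundant contigs 2563 and 2228, the fit over all 24 libraries 760 and 699, and the test for over 1.5-fold 725 and 657. Of the contigs that rose over 8-fold in controls, 20.2% were raised and 15.9% lowered, and of those that rose up to 2-fold, 13.7% and 20.1%. Of the 11659, it raised 9.74% and lowered 22.5%. Of those that fell up to 2-fold in controls, SU5402 raised 10.1% and lowered 23.3%. Of the 101 that fell over 8-fold, SU5402 raised 19.8% and lowered 8.91%. Of the 48654 contigs with no called change in DMSO embryos, it raised 10% and lowered 5.96%. The share lowered was thus 17.6% and 22.5% among contigs that changed in controls and 5.96% among the others. These classes were not matched for level. With all libraries, SU5402 raised 1993 and lowered 2248 of the contigs that rose in controls and raised 1136 of those that fell. Without SU5402 replicate 1 of 21.5 hpf it lowered 1417 of the first and raised 677 of the second. Without DMSO replicate 1 it raised 1196 and lowered 1471 of the first and raised 688 of the second, which was 726 without DMSO replicate 2. No test was made between these shares.

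A value for each library was taken as its position between the DMSO embryos of 18.5 hpf, set to 0, and those of 24.5 hpf, set to 1. It is the median over the 9471 contigs that changed more than 2-fold in DMSO embryos, of which 6427 rose (8.79% of those tested) and 3044 fell (4.16%). The SU5402 libraries stood at 0.593 and 0.612 and the DMSO libraries at 0.593 and 0.62. The means of 0.602 ± 0.013 with SU5402 and 0.607 ± 0.0195 with DMSO (SD, n = 2 each) differed by less than the spread between replicates (exact permutation test, two-sided p = 1, where 0.333 is the smallest p that 2 against 2 libraries can give). The order turned in other settings, with 0.634 for SU5402 and 0.613 for DMSO by library totals, 0.623 and 0.61 by TMM on abundant contigs, 0.612 and 0.606 in the fit over all 24 libraries, and 0.635 and 0.598 with no 2-fold limit.

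The measure was also taken apart by direction. For the 6427, the position was 0.574 and 0.584 with SU5402, against 0.612 and 0.624 with DMSO. For the 3044, it was 0.637 and 0.688 with SU5402, against 0.55 and 0.608 with DMSO. Neither pair of groups overlapped, and each gave the smallest exact p of 0.333. The order among rising contigs depended on the scale: with library totals the mean was 0.638 with SU5402 and 0.629 with DMSO, and a TMM scale set on abundant contigs gave 0.621 in both groups.

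The early series gave a comparison after the same 6 h of exposure and the same 15 PCR cycles. Among 62963 contigs tested in both series, 27.2% of those risen at 21.5 hpf also rose at 11 hpf, where 10.4% of these contigs rose, and they made up 29.8% of the early list. Of the fallen, 29% also fell at 11 hpf, where 10.9% fell, and they made up 30.1% of the early list. Among all contigs tested in the early series, 22.8% rose or fell. Opposite calls were found at 424 contigs that rose at 21.5 and fell at 11 hpf and at 447 with the reverse. More than 2-fold rises at 11 hpf were called at 12.8% of the contigs of that series and falls at 4.18%. At 21.5 hpf 11.3% of the 62963 contigs rose and 11.3% fell. Of the 5715 such rises tested at 21.5 hpf, 1740 rose (30.4%) and 352 fell (6.16%), and the sum was 28473 and 27081 CPM with SU5402, against 22007 and 22428 CPM with DMSO. These include 1 of the 11 contigs that were high in SU5402 replicate 1 of 21.5 hpf. Without it the sum was 27986 and 27069 CPM with SU5402, against 21984 and 22371 CPM with DMSO. Of the 3175 such falls tested at 21.5 hpf, 861 fell (27.1%) and 146 rose (4.6%), with a summed level of 85454 and 88085 CPM with SU5402, against 115268 and 112060 CPM with DMSO. Early replicates were farther apart, with a biological coefficient of variation of 27.2% against 6.83% in the late series, and the difference between the stages was not tested here. The early numbers also turn on single libraries, with 10700 risen and 6890 fallen in all and 5302 and 2879 without SU5402 replicate 1 of 11 hpf. The 1942 contigs that rose at both stages became 1287 without SU5402 replicate 1 of 21.5 hpf and 1134 without DMSO replicate 1. The 424 that rose at 21.5 and fell at 11 hpf became 255 without SU5402 replicate 2, 254 without DMSO replicate 1 and 269 without DMSO replicate 2.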

How the data were processed

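The deposited table holds raw read counts per contig, whole numbers at or above 0, for 24 libraries, and 0 columns were left unused. The submitters' processing notes name BWA 0.6.1. How contigs were assembled and reads filtered and counted is not given in the sources used here. Per the labels' protocols, poly(A) RNA was captured on oligo-dT beads, primed at random and sequenced without strand information.

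The 12 late libraries were analysed in R 4.3.3 with edgeR 4.0.16: filterByExpr, TMM factors, 1 coefficient per group, 6 residual degrees of freedom, glmQLFit and glmQLFTest, two-sided, with Benjamini-Hochberg adjustment over 73087 contigs, which held at least 99.76% of each library's reads. The 12 early libraries were fitted likewise, over 77193 contigs. CPM are scaled by library size and TMM factor. The SE is the absolute log2 fold change divided by the square root of F. Floors cover counting error only. Named contigs are the 2 highest and 2 lowest by smallest p, with at least 5 CPM in both groups or, for changes of the effect, on average over the 8 libraries compared. Contigs and lists were chosen with earlier results of these data known. A list of FGF pathway genes could not be tested, since contigs have no gene names.

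No block was fitted for the replicate number, whose meaning is not stated. It is not stated either that both libraries of a group are separate cultures, so p-values measure the spread between libraries, which may be technical. The replicates differed by more than sampling noise (chi-square per degree of freedom 5.46 for SU5402 and 1.32 for DMSO at 21.5 hpf) and were counted separately. The SU5402 value includes the contigs that were high in SU5402 replicate 1, such as ContigAmph68708 with 277542 and 6110 reads. It was not taken without them, so 5.46 does not stand for the typical contig. Contigs from near-identical copies or overlapping genes on opposite strands may share reads. Tested on simulated counts, the fit recovered 36.5% of 1.5-fold, 69.8% of 2-fold and 94.6% of 4-fold changes at 21.5 hpf over 71157 contigs, with 4.2% of 143 calls false. In this simulation few contigs were changed, all of at least 1 CPM on average. Counts varied only as is typical of their level, with no spread particular to a contig. These rates therefore do not give the power or the share of false calls in the real data. Alternatives used limma 3.58.1 and DESeq2 1.42.0.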

Additional observations from a re-analysis of the deposited data

Results flagged for a closer look

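The SU5402 effect was tested for a difference between collection times. It was higher at 21.5 than at 18.5 hpf for 1000 contigs and lower for 2507, and higher at 24.5 than at 21.5 hpf for 1480 and lower for 1113 (edgeR, adjusted p under 0.05). Of the named contigs, the difference from 18.5 to 21.5 hpf was 1.07 for ContigAmph13823, 1.93 for ContigAmph11043, -3.89 for ContigAmph16200 and -3.18 for ContigAmph5596. From 21.5 to 24.5 hpf it was 2.23 for ContigAmph34810, 1.38 for ContigAmph28494, -2.02 for ContigAmph20052 and -1.99 for ContigAmph16200. Libraries of 21.5 hpf differ from those of the other times in PCR cycles and depth as well, in both arms, and the part of these in the differences was not tested. Groups of 2 libraries are too small for a check of single outlying samples.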

How the results depend on the processing

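With all 24 libraries in 1 fit, fewer late contigs passed: 3847 rose and 3367 fell at 21.5 hpf, 7509 and 4179 at 18.5 hpf, 3216 and 2628 at 24.5 hpf, 7137 and 4999 in DMSO embryos from 18.5 to 24.5 hpf, and the effect changed at 68 up and 494 down to 21.5 hpf and at 26 up and 17 down after it. At 11 hpf that fit gave 11641 fallen contigs. The DESeq2 Wald test gave 4831 risen at 21.5 hpf, 7757 risen and 6341 fallen at 18.5 hpf, 4566 and 4994 at 24.5 hpf, 7013 fallen in DMSO embryos, 558 up to 21.5 hpf and 722 down after it. The test for over 1.5-fold gave 2797 risen and 1818 fallen. The cause was not tested. The mean position of SU5402 libraries moved to 0.634 with library totals (DMSO 0.613), to 0.623 on a TMM scale of abundant contigs (DMSO 0.61) and to 0.635 with no 2-fold limit (DMSO 0.598), so that SU5402 came out above DMSO. With 1 library left out, risen and fallen contigs ranged over 4323 to 5936 and 4840 to 5971 at 21.5 hpf, 9227 to 10286 and 7348 to 8090 at 18.5 hpf, 5349 to 6678 and 5688 to 6639 at 24.5 hpf, 5274 to 8031 and 2879 to 6218 at 11 hpf, and 9547 to 10908 and 8515 to 9363 in DMSO embryos. Changes of the effect ranged over 474 to 979 up and 1431 to 2628 down to 21.5 hpf, and 516 to 1436 up and 361 to 1237 down after it. The position ranged over 0.561 to 0.63 for SU5402 and 0.581 to 0.636 for DMSO. The balance of risen and fallen contigs at 21.5 hpf was not stable. It turned with DESeq2 size factors (7750 and 8060), the DESeq2 Wald test (4831 and 5528) and the libraries of the comparison alone (8194 and 8358). Leaving out DMSO replicate 1, DMSO replicate 2 or SU5402 replicate 2 of 21.5 hpf turned it too. The balance of the effect after 21.5 hpf turned with TMM on abundant contigs (1040 up and 1427 down). With the replicate block 7778 contigs rose and 7610 fell at 21.5 hpf, and with crossed numbers, added after seeing the data since same-numbered libraries deviated with a correlation of -0.1, 7750 and 7553. The 15 correlations between late groups ran from -0.34 to 0.15. The few reads of rare contigs and 2 libraries per group limit the calls.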
